A study of Homo sapiens with 24 samples.

Results

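The 36 genes described here encode smooth muscle and cytoplasmic actins, myosin chains, the proteins that bundle, cover or anchor actin filaments, and serum response factor (SRF) with 2 of its partners or targets. They were chosen by symbol, and the first entry of each symbol was taken from the 36468 entries of the count table. All 36 passed the count minimum and were among the 29377 genes tested. Cultures of sensory neurons were derived from the human embryonic stem cell line H9WAO9 (genotype WT) by way of vagal neural crest cells, and mRNA was counted in 24 libraries, 1 for each of 4 treatments in each of 6 batches of differentiation. Vehicle cultures (n = 6) received 0.1% bovine serum albumin (BSA) in PBS for 5 days. TGF-β cultures (n = 6) received 2 ng/ml TGF-β and IL-4+IL-13 cultures (n = 6) received 10 ng/ml IL-4 with 3 ng/ml IL-13, in the same solution and for the same 5 days. The remaining group (n = 6) is labelled IL-6, with no dose or time in the labels. The 6 batches are repeats of 1 line, and whole cultures were lysed, so every value is that of a mixture of cells. The question put to these genes was whether the contractile program of myofibroblasts was higher or lower after TGF-β.

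Myofibroblasts are contractile fibroblasts that assemble stress fibres, bundles of actin, myosin and tropomyosin anchored at adhesion plaques, and α-smooth muscle actin is their customary marker. Free actin monomers hold the coactivators MRTFA and MRTFB in the cytoplasm, and when monomers are built into filaments these coactivators enter the nucleus and switch on SRF target genes, whose promoters often carry a CArG box. TGF-β is a classical inducer of this program in fibroblasts and in smooth muscle of the airway wall.

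Each library held between 33342682 and 39817784 counts. Levels are given below as counts normalized with DESeq2's size factors, and within-batch log2 ratios compare 2 libraries of the same batch. Libraries of a batch deviated together from their treatment means, with a median correlation of 0.637 over 36 pairs and 16890 genes, against -0.172 over 240 pairs from different batches. The vehicle libraries of batches 2 and 4 stood apart. Over the 36 genes the vehicle of batch 2 had a correlation of 0.212 with its own batch and 0.504 with batch 4, and the vehicle of batch 4 had 0.104 with its own batch and 0.693 with batch 2. Over all 16890 genes the vehicle of batch 2 had 0.0554 with its own batch and 0.423 with batch 4, and the vehicle of batch 4 had 0.165 with its own and 0.418 with batch 2. Each thus resembled the other's batch more than its own. Over the 36 genes the treated libraries of batch 4 also resembled another batch more. TGF-β had 0.358 with its own batch and 0.468 with batch 3, IL-6 0.319 and 0.567 with batch 3, and IL-4+IL-13 0.0588 and 0.348 with batch 1. Over all 16890 genes this held for TGF-β (0.442, and 0.644 with batch 3) and IL-4+IL-13 (0.351, and 0.589 with batch 3). For IL-6 it did not (0.472, and 0.463 with batch 3). Whether the labels of these 2 vehicles were exchanged was not tested, and an exchange would alter every ratio to vehicle within batches 2 and 4. The labels were kept as given, and the fold changes against vehicle of the genes named by rule are also given without these 2 libraries. The labels name the tissue as stem cells, but POU5F1 and NANOG did not exceed 0.868 and 4.87 normalized counts in any library. They were 2 of 6 pluripotent cell markers, and the other 4 reached a mean of at least 10. DPPA4, the highest of these, ran from 243 to 1918 over all libraries. The summed level of 13 neuronal markers, all detected, ran from 66807 to 412071 in vehicle. That of 12 fibroblast and mesenchyme markers, also all detected, ran from 180054 to 494835. Of 10 smooth muscle and pericyte markers 9 reached a mean of at least 10, with phospholamban (PLN) near 0, and their vehicle sums ran from 12053 to 17974.

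In vehicle cultures the 36 genes spanned more than 4 orders of magnitude in normalized counts per kilobase of the canonical transcript. Cytoplasmic actins led, with medians of 74207 for ACTB (β-actin) and 35949 for ACTG1 (γ-actin). They were followed by 24472 for the myosin light chain gene MYL6 and 22090.5 for TPM1, the tropomyosin that lies along the actin filament. Among the smooth muscle proteins on the same per-kilobase scale, ACTA2 (α-smooth muscle actin) was at 5476 and TAGLN (SM22α, an actin-binding protein of smooth muscle) at 4455, while TAGLN2, the transgelin of non-muscle cells, was at 4573. The other 3 muscle actins were lower, at 642 for ACTC1, 396 for ACTG2 and 38.2 for ACTA1. The genes that mark differentiated, contractile smooth muscle were lower: the median was 239 for CNN1 (calponin), 97.3 for LMOD1 (leiomodin, which nucleates actin filaments) and 2.82 for MYH11, the smooth muscle myosin heavy chain. MYH11 held as few as 4 counts in a library and was the only one of the 36 genes under 10 counts in any library. SRF itself was at 424, and its smooth muscle and cardiac partner MYOCD (myocardin) at 19.2. Several loci overlap other genes in the RefSeq annotation, TAGLN with PCSK7, MYH11 with NDE1, and MYOCD and TPM1 with an antisense gene each, and without knowledge of strand in the counting their reads cannot be told apart.

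Batch 1 held the highest vehicle level for 28 of the 36 genes, while 28.7% of all genes tested were highest there. Against the median of the other 5 vehicles, the vehicle of batch 1 had 7.66 times the level of ANKRD1 (a mechanosensitive ankyrin repeat protein of the nucleus and sarcomere), 3.36 times that of MYOCD, 2.21 times that of TAGLN and 1.98 times that of ACTA2. SRF, ACTB and ACTG1 were only 1.25, 1.2 and 1.05 times the level of the others. The intermediate filament gene DES (desmin) went the other way, at 0.375 times. The same vehicle library also held the lowest neuronal marker sum, 66807, the highest mesenchymal sum, 494835, and the highest smooth muscle and pericyte sum, 17974. The epithelial, immune cell, endothelial and pluripotent cell sums were highest there too, at 34814, 2473, 4581 and 1314, where the medians of the 6 vehicles were 13005, 925, 2627 and 694. The part of these sums in the high contractile levels was not tested. In bulk RNA, fewer cells of a type and less RNA per cell cannot be told apart. Between the highest and lowest of the 6 untreated cultures, levels differed 10.3-fold for ANKRD1, 4.64-fold for MYOCD, 3.09-fold for TAGLN and 1.37-fold for SRF. The fit used for the comparisons below keeps the batch as a term, which sets these differences in level apart from the treatment effects.

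The proximal promoters were searched for the 10-base CArG box that SRF binds, only in the form CC, 6 bases of A or T, GG. Boxes that depart from this form were not searched for, so a gene without a match may still carry one. The windows were also searched for CATTCC (or GGAATG on the other strand). TEAD factors, the partners of the mechanosensitive coactivators YAP and TAZ, bind this element. RefSeq windows (GRCh38.p14, 250 bases before to 50 after the annotated start) were at hand for 30 of the 36 genes. ACTB, TAGLN, MYL9, MYH11, MYOCD and DES had no entry. A CArG box was found for 11 of the 30 genes (36.7%), against 438 of 27305 symbols in the table (1.6%). CATTCC on either strand was found for 14 of the 30 (46.7%) against 16.7% of all symbols. A gene counted once if any of its windows matched, and the 30 genes had 54 windows. Counted by window, the shares were 20.4% against 1.29% of all 35116 windows for the CArG box and 27.8% against 14% for CATTCC. The first pair of stretches below belongs to genes called further on as differing between treatments, and the next 7 are the CArG promoters of muscle actins, of γ-actin, of SRF and of a calponin and a tropomyosin. Capitals mark the matched letters, and each stretch lies before the annotated start.
ANKRD1, chr10:90921195-90921322, minus strand: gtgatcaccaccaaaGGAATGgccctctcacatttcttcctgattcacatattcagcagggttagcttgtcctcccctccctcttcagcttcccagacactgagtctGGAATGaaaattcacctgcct
LMOD1, chr1:201946654-201946689, minus strand: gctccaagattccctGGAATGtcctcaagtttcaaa
ACTA1, chr1:229434121-229434206, minus strand: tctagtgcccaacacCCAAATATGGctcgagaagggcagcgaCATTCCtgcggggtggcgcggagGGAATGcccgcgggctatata
ACTG2, chr2:73892883-73892959, plus strand: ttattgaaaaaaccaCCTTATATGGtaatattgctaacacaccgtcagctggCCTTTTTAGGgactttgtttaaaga
ACTC1, chr15:34795634-34795673, minus strand: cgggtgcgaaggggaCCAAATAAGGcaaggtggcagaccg
ACTG1, chr17:81512869-81512908, minus strand: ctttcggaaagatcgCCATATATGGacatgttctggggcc
SRF, chr6:43171224-43171268, plus strand: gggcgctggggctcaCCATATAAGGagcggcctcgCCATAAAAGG
CNN2, chr19:1026504-1026543, plus strand: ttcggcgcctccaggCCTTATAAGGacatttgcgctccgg
TPM4, chr19:16067350-16067389, plus strand: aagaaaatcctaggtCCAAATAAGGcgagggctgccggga
ANKRD1 held 2 GGAATG matches and no CArG box in its window, while ACTG2 (γ-smooth muscle actin) and SRF held 2 CArG boxes each. The windows of ANKRD1, LMOD1, TAGLN2 and TPM1 held no CArG box, which says only that these letters are not within these bases. A match is a description of the sequence and no evidence that a factor was bound in these cultures.

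No member of the contractile program passed the test between TGF-β and vehicle: edgeR's quasi-likelihood test called 0 of the 36 genes at an adjusted p under 0.05, while it called 102 of all 29377 genes, or 0.347%, with 24 higher and 78 lower. DESeq2 also called 0 of the 36, against 504 genes in all, 1.72%. At an unadjusted p under 0.05 there were 6 of the 36, 2 higher and 4 lower, and the share over all genes was 7.29%. The median log2 fold change of the 36 was -0.055, beside -0.012 over all genes, and 23 of the 36 were negative, where 52.6% of all genes were. The ranges of the 2 groups overlapped for each of the 36 genes. For 32 of them the 95% interval of the log2 fold change lay within 1 in either direction. The other 4, whose intervals reached further, were ACTC1, MYH11, LMOD1 and DES. Standard errors and intervals here and below derive from edgeR's log2 fold change and F statistic, and adjusted p values are edgeR's over all 29377 genes unless DESeq2 is named.

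**Figure D1:**
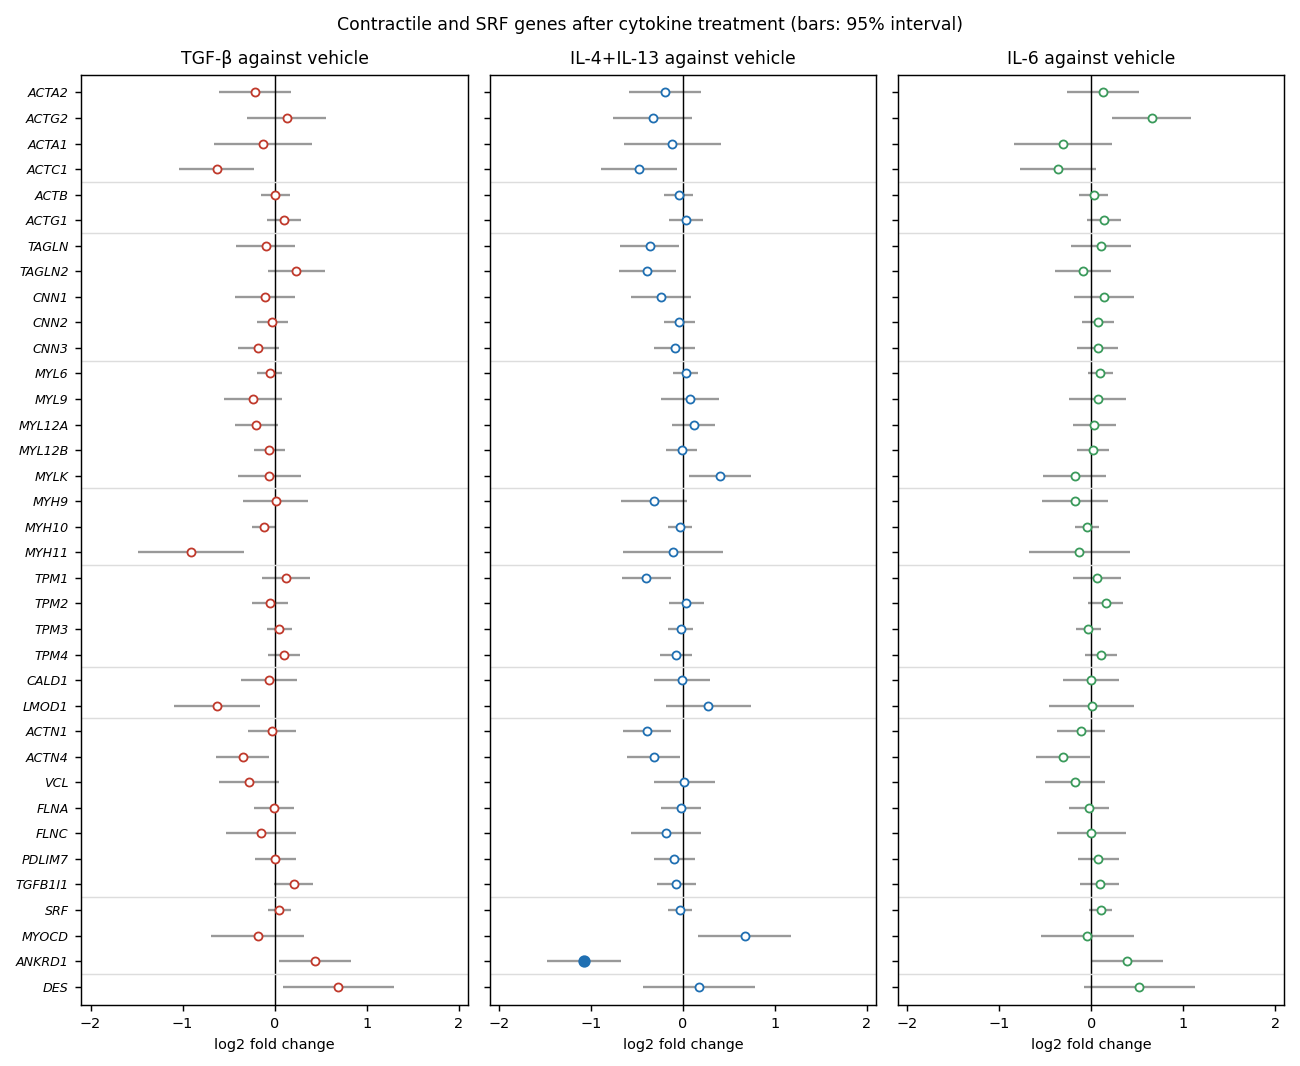
Log2 fold changes of the 36 genes against vehicle in the 3 treated groups (n = 6 batches each), with bars for the 95% interval; genes are grouped by role and filled points mark adjusted p under 0.05. The 1 filled point is ANKRD1 under IL-4+IL-13, and under TGF-β no point is filled.

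ACTA2, the defining myofibroblast gene (chr10:88935074-88991337 in GRCh38.p14, a locus it shares with FAS and an antisense gene), was not called between TGF-β and vehicle. Its lowest, median and highest normalized counts were 4926, 7386 and 12893 in vehicle and 4374, 4933 and 17159.9 after TGF-β. Both maxima belonged to batch 1, and the TGF-β median lay close to the lowest vehicle. Within batches the log2 ratio was 0.41 in batch 1, 0.034 in batch 4 and between -0.87 and -0.27 in the other 4. The fitted log2 fold change was -0.22 (SE 0.19, 95% interval -0.61 to 0.18, adjusted p = 0.914), and without the vehicles of batches 2 and 4 it was -0.25 (adjusted p = 0.833).

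TAGLN and CNN1, which accompany ACTA2 in smooth muscle and myofibroblasts, were not called either. TAGLN levels were 11838, 16865 and 36542 (lowest, median, highest) in vehicle and 11538, 14719.7 and 44348 after TGF-β, and the log2 fold change was -0.10 (SE 0.15, adjusted p = 0.971). CNN1 levels were 251, 358 and 774 in vehicle and 272, 317 and 868 after TGF-β, and the log2 fold change was -0.10 (SE 0.16, adjusted p = 0.969). Both genes were higher in batches 1 and 4 and lower in the other 4 batches. TAGLN2 was higher in 5 of 6 batches, at 0.24 (95% interval -0.071 to 0.54, adjusted p = 0.825). With the vehicles of batches 2 and 4 left out the log2 fold changes were -0.12 for TAGLN, -0.16 for CNN1 and 0.28 for TAGLN2.

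**Figure D2:**
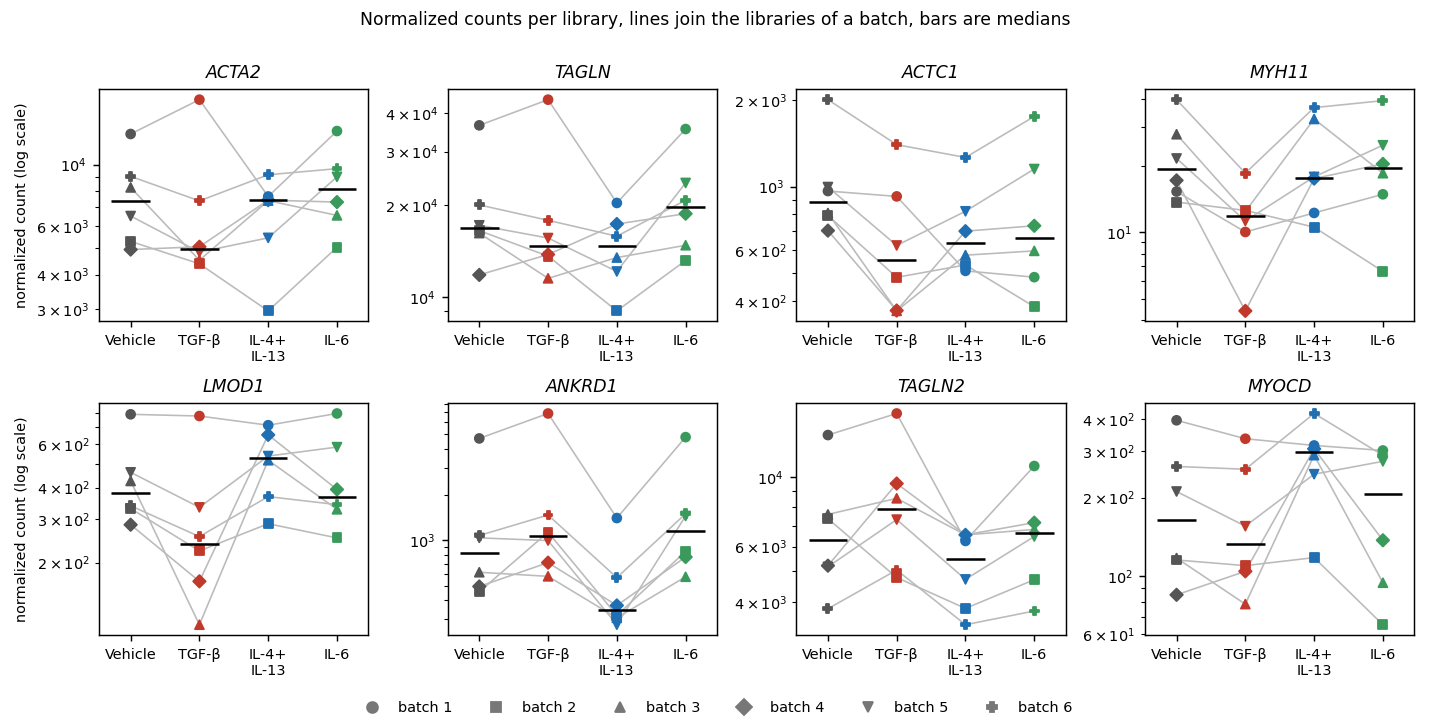
Normalized counts (log axis) of ACTA2, TAGLN, ACTC1, MYH11, LMOD1, ANKRD1, TAGLN2 and MYOCD in each of the 24 libraries by treatment; lines join the 4 libraries of a batch and black bars are group medians. The batches lie further apart than the treatments for most genes, and for ANKRD1 the line of batch 1 is the highest within each treatment, from 1401 under IL-4+IL-13 to 6877 under TGF-β.

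The 3 genes furthest below vehicle were ACTC1 (cardiac α-actin, also expressed in immature muscle), MYH11 and LMOD1, each lower in 6 of 6 batches but not called. ACTC1 levels were 703, 887 and 2004 in vehicle and 369.7, 554 and 1398 after TGF-β, a log2 fold change of -0.63 (SE 0.20, unadjusted p = 0.00471, adjusted p = 0.278). MYH11 levels were 13.7, 19.4 and 39.9 in vehicle and 4.4, 11.8 and 18.5 after TGF-β, a log2 fold change of -0.91 (SE 0.27, adjusted p = 0.246) at levels where a few counts move the value. LMOD1 levels were 284, 382 and 788 in vehicle and 113, 239 and 776 after TGF-β, a log2 fold change of -0.62 (SE 0.22, adjusted p = 0.415). Single batches differed little from vehicle, with log2 ratios of -0.023 for LMOD1 and -0.062 for ACTC1 in batch 1 and -0.12 for MYH11 in batch 2. LMOD1 reached -1.91 in batch 3, and with each batch left out in turn its log2 fold change ran from -0.78 to -0.41. All 3 encode sarcomeric or smooth muscle proteins, and another gene, ACTN4 (α-actinin-4, a cross-linker of actin in non-muscle cells), was also lower in 6 of 6 batches, at -0.35 (adjusted p = 0.513). Lower values in all 6 batches were found for 4 of the 36 genes and for 2.51% of all genes. A second entry of ACTN4 in the count table had a log2 fold change of -0.11. The log2 fold change without the vehicles of batches 2 and 4 was -0.61 for ACTC1, -0.90 for MYH11 and -0.65 for LMOD1. Read assignment between near-identical actins was not given in the sources used here, which leaves the levels of ACTA1, ACTC1, ACTG2 and ACTA2 uncertain to that degree.

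On the other side, ANKRD1 and DES had unadjusted p values under 0.05. ANKRD1 (chr10:90912096-90921087) had levels of 456, 825 and 4704 in vehicle and 577, 1062 and 6877 after TGF-β, a log2 fold change of 0.44 (SE 0.19, adjusted p = 0.58), higher in 4 of 6 batches. DES levels were 37.7, 92.9 and 158 in vehicle and 39, 181 and 427 after TGF-β, a log2 fold change of 0.69 (SE 0.29, adjusted p = 0.559), higher in 5 of 6. Both genes had their highest log2 ratio in batch 2, 1.31 for ANKRD1 and 2.31 for DES, and the vehicle of that batch stood apart. Without batch 2 ANKRD1 was at 0.27 and DES at 0.45, and over the 6 batches left out in turn they ran from 0.27 to 0.56 and from 0.45 to 0.97. They were at 0.24 and 0.67 without the vehicles of batches 2 and 4. The difference for DES ran opposite to those of ACTC1, MYH11 and LMOD1. The 2 cytoplasmic actins had narrow intervals. The log2 fold change was 0.00748 (95% interval -0.15 to 0.16) for ACTB and 0.10 (-0.082 to 0.29) for ACTG1, and without the vehicles of batches 2 and 4 it was -0.00978 for ACTB and 0.047 for ACTG1. ACTG1 was nevertheless higher in 6 of 6 batches, as was TGFB1I1 (Hic-5, an adhesion plaque protein named for its induction by TGF-β, and singled out here after its values were seen) at 0.21 (-0.00476 to 0.42). The log2 ratio of ACTG1 was 0.00527, 0.015 and 0.038 in batches 3, 4 and 5 and 0.39 in batch 2. That of TGFB1I1 ran from 0.012 in batch 6 to 0.48 in batch 1. ACTG1 and TGFB1I1 were 2 of the 36 genes, where 1.66% of all genes were higher in every batch.

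Neither SRF nor MYOCD was called. SRF levels were 1583, 1793 and 2172 in vehicle and 1631, 1790.0 and 2553 after TGF-β, a log2 fold change of 0.052 (95% interval -0.076 to 0.18, adjusted p = 0.958). MYOCD levels were 85, 164 and 395 in vehicle and 78.3, 133 and 335 after TGF-β, a log2 fold change of -0.18 with a wide interval (-0.69 to 0.32, adjusted p = 0.964). Leaving out the vehicles of batches 2 and 4 gave 0.039 for SRF and -0.24 for MYOCD. By role, the median log2 fold change after TGF-β was -0.17 for the 4 muscle actins, -0.10 for the 5 transgelins and calponins, -0.059 for the 5 myosin light chain genes with their kinase, and -0.11 for the 3 myosin heavy chains. It was 0.078 for the 4 tropomyosins and -0.028 for the 7 cross-linkers and adhesion plaque genes. No role had a member called. The 18 genes outside the naming rule, among them the non-muscle myosins MYH9 and MYH10, the filamins FLNA and FLNC, vinculin (VCL), caldesmon (CALD1) and the remaining light chains, calponins and tropomyosins, lay between -0.28 and 0.21 after TGF-β. The same 18 lay between -0.39 and 0.12 after IL-4+IL-13 and between -0.18 and 0.16 under IL-6.

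The direction after TGF-β differed between batches, and most of the 36 genes shared a direction within a batch. In batch 1, 25 of the 36 genes were higher than in the vehicle of that batch, with a median log2 ratio of 0.091, and in batch 4, 27 were higher, with a median of 0.18. Over all genes the shares higher in those batches were 42.9% and 48.3%. In batches 2, 3, 5 and 6 only 11, 9, 10 and 12 of the 36 were higher, with medians of -0.18, -0.22, -0.081 and -0.11, while the shares over all genes were 44.4%, 46.1%, 47.4% and 47.8%. The vehicle of batch 4 is 1 of the 2 that stood apart, and in batch 4 the IL-4+IL-13 and IL-6 libraries also held 30 and 33 of the 36 genes above it, with 50.3% and 49.8% of all genes. Without the vehicles of batches 2 and 4 the median log2 fold change after TGF-β was -0.06, without batches 2 and 4 altogether it was -0.051, and without batch 1 it was -0.069. None of the 36 genes was called in any of these fits. Genes of one library share its depth and its mixture of cells, so the 36 ratios of a batch are not independent of each other.

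**Figure D3:**
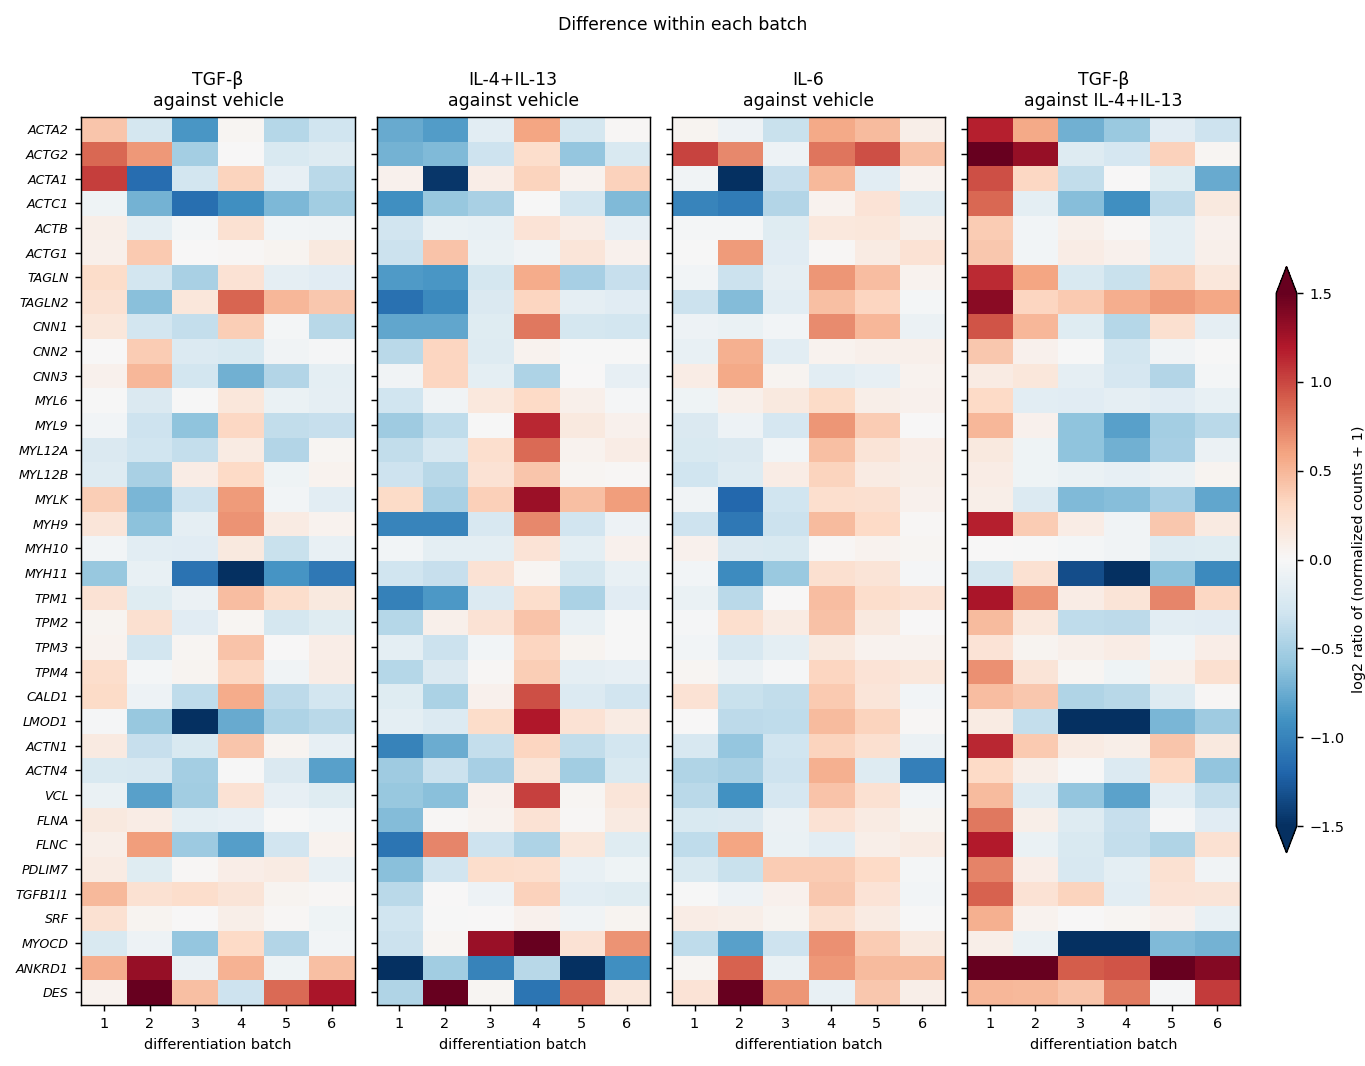
Within-batch log2 ratios of the 36 genes (rows, by role) in the 6 batches (columns) for 4 comparisons; blue is lower, red is higher, and the colour scale ends at 1.5 in either direction. Whole columns share a colour: batch 4 is mostly red in each comparison with vehicle, and batch 1 is red for 35 of 36 genes between TGF-β and IL-4+IL-13.

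ANKRD1 fell after IL-4+IL-13 and was the only member called against vehicle. Its lowest, median and highest levels were 456, 825 and 4704 in vehicle and 276, 344 and 1401 after IL-4+IL-13. The level was lower in 6 of 6 batches, and batch 1 was the highest in both groups, so that the ranges overlapped. The log2 fold change was -1.08 (SE 0.19, 95% interval -1.48 to -0.67, adjusted p = 0.00899), or 0.474 times the vehicle level. Across all genes 186 were called, 0.633% of those tested, 109 higher and 77 lower (0.262%). DESeq2 called ANKRD1 alone among the 36, and 574 of all genes (1.95%). The call for ANKRD1 was lost without batch 1 (log2 fold change -0.94, adjusted p = 0.0723) and without batch 6 (-1.11, adjusted p = 0.0661). It was also lost when only the vehicle and IL-4+IL-13 libraries were fitted (-1.09, adjusted p = 0.175), and in a fit with no term for the batch (-1.37, adjusted p = 1). Without the vehicles of batches 2 and 4 it was -1.29 (adjusted p = 0.00434), still called.

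Among the other 35 genes none passed the test under IL-4+IL-13. The 36 had a median log2 fold change of -0.058 beside -0.00768 over all genes, 26 were negative (all genes: 51.5%), and 9 had an unadjusted p under 0.05 (7 lower, 2 higher) where 9.1% of all genes did. ACTA2 levels were 2956, 7418 and 9182 (log2 fold change -0.20, 95% interval -0.59 to 0.20). TPM1 (chr15:63042747-63071915) was at -0.40 (adjusted p = 0.253), TAGLN2 (chr1:159918111-159925507) at -0.39 (adjusted p = 0.4) and TAGLN at -0.36 (adjusted p = 0.488), each lower in 5 of 6 batches. ACTC1 was lower in 6 of 6 at -0.48 (adjusted p = 0.458), which with ANKRD1 made 2 of the 36 lower in every batch, where 1.78% of all genes were. Without the vehicles of batches 2 and 4 the log2 fold change was -0.24 for ACTA2, -0.40 for TPM1, -0.34 for TAGLN2, -0.41 for TAGLN and -0.46 for ACTC1.

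MYOCD and MYLK lay on the other side of vehicle in the same cultures, without being called. MYOCD levels were 85, 164 and 395 in vehicle and 118, 299 and 419 after IL-4+IL-13, with a log2 fold change of 0.67 (SE 0.24, adjusted p = 0.36), higher in 5 of 6 batches and lower in batch 1. MYLK, the kinase that phosphorylates the myosin light chain and so starts smooth muscle contraction, was at 0.40 (SE 0.16, adjusted p = 0.452), higher in 5 of 6. Leaving out the vehicle of batch 2, which stood apart, brought MYLK to 0.59 (adjusted p = 0.0379), and leaving out the whole of batch 2 gave 0.60 (adjusted p = 0.0472). When the vehicles of batches 2 and 4 were both left out it was 0.48 (adjusted p = 0.104), not called, and without batch 4, where its log2 ratio was highest at 1.28, it was 0.24. LMOD1 was at 0.28 (95% interval -0.18 to 0.74) and SRF at -0.034 (-0.16 to 0.094). Batch 4 also carried part of MYOCD and LMOD1, whose log2 ratios there were 1.84 and 1.20, and without it they were at 0.44 and 0.081. The values without those 2 vehicles were 0.58 for MYOCD, 0.23 for LMOD1 and -0.05 for SRF. In batch 1 only 2 of the 36 genes were above vehicle, with a median log2 ratio of -0.43 and 45.9% of all genes higher, and in batch 4 the median was 0.32.

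Under IL-6, edgeR called 0 of the 36 genes and 0 of all genes (0%), with 2 of the 36 and 4.77% of all genes at an unadjusted p under 0.05. DESeq2 called 0 of the 36 and 132 of all genes (0.449%). ACTG2, the actin of visceral smooth muscle, had levels of 456, 594 and 961 in vehicle and 581, 918 and 1938 under IL-6, with a log2 fold change of 0.66 (SE 0.20, 95% interval 0.23 to 1.09, unadjusted p = 0.00485, adjusted p = 0.85), higher in 5 of 6 batches. ACTN4 was at -0.31 (adjusted p = 0.85), while its second entry was at 0.00622, so this difference was not seen in both entries. ACTA2 differed by 0.13 (-0.27 to 0.52), TAGLN by 0.11 (-0.21 to 0.43) and CNN1 by 0.14 (-0.19 to 0.46), none of them called. DES was at 0.52 (-0.083 to 1.13) and ANKRD1 at 0.39 (-0.0027 to 0.78), each higher in 5 of 6 batches, and ACTC1 and ACTA1 (skeletal α-actin) were at -0.36 and -0.30. The log2 ratio of DES was 2.33 in batch 2 and no higher than 0.66 in any other batch. With each batch left out in turn the log2 fold change of DES ran from 0.23 to 0.72. The median over the 36 was 0.032, with 13 negative, where 52.7% of all genes were. Without the vehicles of batches 2 and 4 the median was -0.011, and the log2 fold change was 0.57 for ACTG2, -0.43 for ACTN4, 0.50 for DES and 0.18 for ANKRD1. For ACTA2, TAGLN and CNN1 it was 0.084, 0.07 and 0.068, and for ACTC1 and ACTA1 -0.35 and -0.082.

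The direct comparison of TGF-β with IL-4+IL-13 separated the cultures more than either comparison with vehicle. It called 4 of the 36 genes, 3 higher and 1 lower after TGF-β, and 874 of all genes, 2.98% of those tested, with 317 higher (1.08%) and 557 lower (1.9%). At an unadjusted p under 0.05 there were 13 of the 36, beside 12.2% of all genes, and DESeq2 called 5 of the 36 and 5.35% of all genes. ANKRD1 had the largest difference. Its level was 577, 1062 and 6877 (lowest, median, highest) after TGF-β and 276, 344 and 1401 after IL-4+IL-13, higher in 6 of 6 batches with log2 ratios from 0.91 in batch 3 to 2.29 in batch 1. The log2 fold change was 1.52 (SE 0.19, adjusted p = 0.000136), 2.86-fold, and it was past the threshold in every fit that had a term for the batch, while without that term it was 1.85 (adjusted p = 0.823). It was the only called member with a log2 fold change beyond 1, as were 1.18% of all genes.

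TAGLN2 and TPM1 were also higher after TGF-β than after IL-4+IL-13, in 6 of 6 batches each. TAGLN2 levels were 4777, 7929 and 15942 after TGF-β and 3378, 5482 and 6537 after IL-4+IL-13, a log2 fold change of 0.62 (SE 0.15, adjusted p = 0.0217, 1.54-fold). TPM1 levels were 21937, 27679.9 and 71379 after TGF-β and 15747, 21219.7 and 30481 after IL-4+IL-13, a log2 fold change of 0.52 (SE 0.13, adjusted p = 0.0252, 1.43-fold). For both genes the maximum after TGF-β was in batch 1. Without batch 1 TAGLN2 was at 0.49 (adjusted p = 0.101) and TPM1 at 0.39 (adjusted p = 0.123), neither called. Leaving out batch 3, 5 or 6 also ended the call of TAGLN2, at 0.68, 0.63 and 0.62 (adjusted p = 0.0723, 0.0898 and 0.0901), and leaving out batch 5 or 6 did so for TPM1, at 0.49 and 0.56 (adjusted p = 0.148 and 0.0747). ACTN1 (α-actinin-1, the stress fibre cross-linker, singled out after its values were seen) was higher in 6 of 6 batches as well, at 0.37 (adjusted p = 0.157). Over all genes 4.48% were higher in every batch.

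LMOD1 (chr1:201896456-201946548) was lower after TGF-β than after IL-4+IL-13, the reverse of the other 3. Its levels were 113, 239 and 776 after TGF-β and 287, 526 and 713 after IL-4+IL-13, a log2 fold change of -0.90 (SE 0.23, adjusted p = 0.0328, 0.536 times). The log2 ratio was 0.12 in batch 1, -2.18 in batch 3, -1.95 in batch 4 and between -0.68 and -0.36 in the other 3, so batches 3 and 4 carried most of it. Without batch 3 it was -0.68 (adjusted p = 0.157), without batch 4 -0.67 (adjusted p = 0.171), and without batches 2 and 4 -0.75 (adjusted p = 0.189). Its size held without batch 5 (-0.93, adjusted p = 0.12) and without batch 6 (-0.98, adjusted p = 0.0865), though it was not called. MYOCD was on the same side, lower in 5 of 6 batches at -0.86 (SE 0.24, adjusted p = 0.0662), and DESeq2 called it (adjusted p = 0.0164). MYH11 and MYLK were lower in 5 of 6 batches too, at -0.80 (adjusted p = 0.164) and -0.46 (adjusted p = 0.176). Without batch 2, MYLK was called, as were MYOCD at -1.01 and MYH11 at -1.03, and without batch 1 so was MYOCD, at -1.03. With the IL-6 libraries left out of the fit the log2 fold changes of TAGLN2, TPM1 and LMOD1 were close to those above, at 0.63, 0.52 and -0.91, but none of the 3 was called (adjusted p = 0.093, 0.0958 and 0.118).

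**Figure D4:**
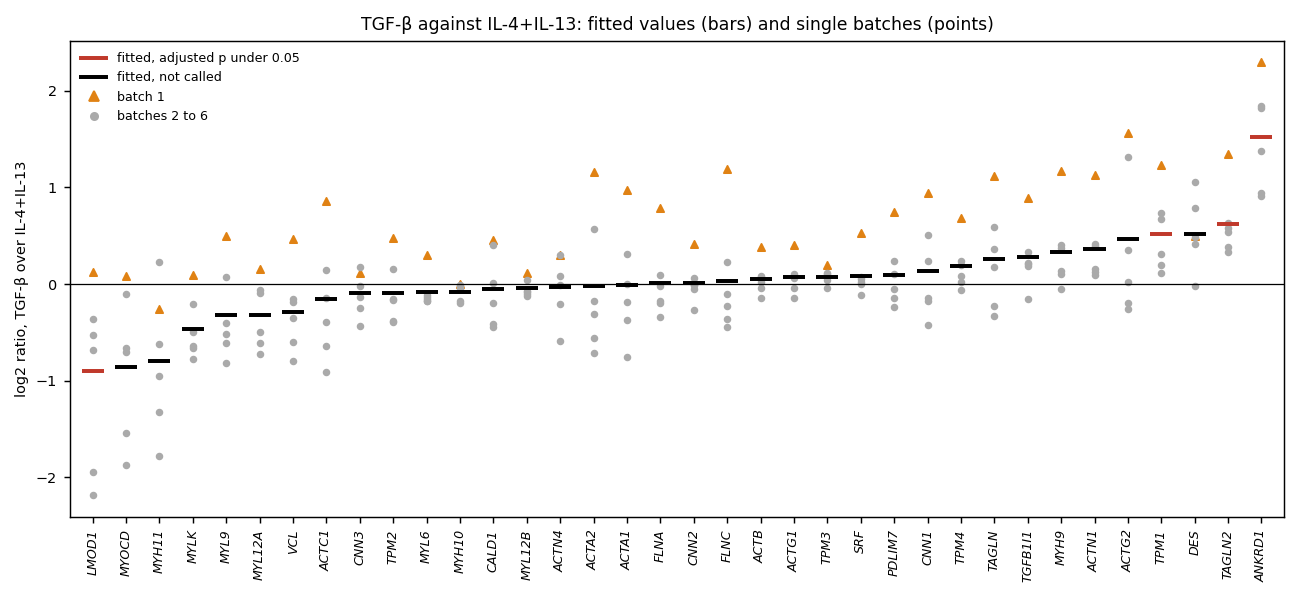
Within-batch log2 ratios of TGF-β over IL-4+IL-13 for the 36 genes, sorted by the fitted log2 fold change (bars, red where called); orange triangles are batch 1 and grey points batches 2 to 6. The triangle is the highest point for 33 of the 36 genes, with ANKRD1 at one end and LMOD1 at the other.

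Batch 1 stood apart in this comparison. Its log2 ratio was the highest of the 6 batches for 33 of the 36 genes, where 21.5% of all genes had that order. In batch 1, 35 of the 36 genes were higher after TGF-β than after IL-4+IL-13, with a median log2 ratio of 0.50 and 41.8% of all genes higher, and the medians were 0.10, -0.17, -0.23, -0.11 and -0.015 in batches 2 to 6. The fitted median over the 36 was 0.015 with all batches and -0.088 without batch 1. ACTA2, TAGLN and CNN1, at -0.019, 0.26 and 0.13, were not called, and SRF was at 0.085 (95% interval -0.042 to 0.21).

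Against IL-6, TGF-β had none of the 36 genes called by edgeR, with 8 at an unadjusted p under 0.05 (1 higher, 7 lower), and DESeq2 called 0 of them. Over all genes 23 were called (0.0783%), 7.5% passed without adjustment, and DESeq2 called 500 (1.7%). LMOD1 and ACTG2 were lower in 6 of 6 batches, at -0.63 (adjusted p = 0.436) and -0.52 (adjusted p = 0.521), and TAGLN2 was higher in 6 of 6 at 0.33 (adjusted p = 0.626). Over all genes 3.54% were lower and 3.62% higher in every batch, and among the 36 there were 3 and 1. ACTA2 was at -0.34 (95% interval -0.74 to 0.051). The TGF-β and IL-4+IL-13 comparisons with vehicle share the vehicle libraries, and the comparisons of TGF-β with each other treatment share the TGF-β libraries, so their values are set side by side here without being counted as separate evidence.

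Related gene lists put these values beside other outputs of the same pathways. The lists were written with earlier results of these data known. Differences between the lists and the 36 genes are therefore given as a description and are no test. The lists overlap in part. CCN2 is in both the SRF and MRTF target list and the TGF-β response list, and LOX is in both the TGF-β response list and the matrix list. Between TGF-β and vehicle none of the 7 tested SRF cofactors, 16 other SRF and MRTF target genes and 10 other smooth muscle genes was called, and their median log2 fold changes were -0.02, -0.03 and -0.043. Direct TGF-β response genes lay higher, at a median of 0.22 over 16 genes with 1 called, the cytokine IL11 at 1.07 (adjusted p = 0.0122). TGFBI and SMAD7, which SMAD proteins induce in many cells, were at 0.79 (adjusted p = 0.374) and 0.14 (adjusted p = 0.878), neither of them called. The 16 genes of myofibroblast matrix and surface had a median of 0.37 with 0 called and 6 at an unadjusted p under 0.05, all 6 higher. Over all genes 2.42% were higher by that rule. At 5 days the matrix and TGF-β response lists had higher medians than the 36 contractile genes, at -0.055, though only IL11 was called.

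Under IL-4+IL-13 the TGF-β response list was the one with most genes called, 4 of 16 and all lower, with a median of -0.52. Over all genes 0.262% were called lower. TGFBI was at -1.55 (adjusted p = 0.00975) and LTBP2 at -1.12 (adjusted p = 0.0497). Among matrix and surface genes the collagen receptor subunit ITGA11 fell (-1.59, adjusted p = 0.000888) and tenascin C (TNC) rose (1.21, adjusted p = 0.0225). The SRF and MRTF target list had 0 called and a median of -0.18. Under IL-6 no gene of these lists was called.

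Between TGF-β and IL-4+IL-13, 11 of the 16 TGF-β response genes were higher after TGF-β and 1 was lower, with a median of 0.63. Over all genes 1.08% were called higher and 1.9% lower. TGFBI was at 2.34 (adjusted p = 9.24e-05), IL11 at 1.82 and PMEPA1 at 1.73, and SMAD7 at 0.34 (adjusted p = 0.102) was not called. Of the matrix and surface list 7 of 16 were higher, led by ITGA11 at 2.40, FAP at 1.60 and FN1 (fibronectin) at 1.49, and none was lower. Other SRF and MRTF targets had 2 of 16 higher, JUNB at 0.94 (adjusted p = 0.00681) and CCN2 (connective tissue growth factor, also a YAP target) at 0.87 (adjusted p = 0.00802), with a list median of 0.19. SRF cofactors and other smooth muscle genes had 0 called, with medians of 0.081 and 0.071. The 36 contractile genes had 4 called and a median of 0.015.

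**Figure D5:**
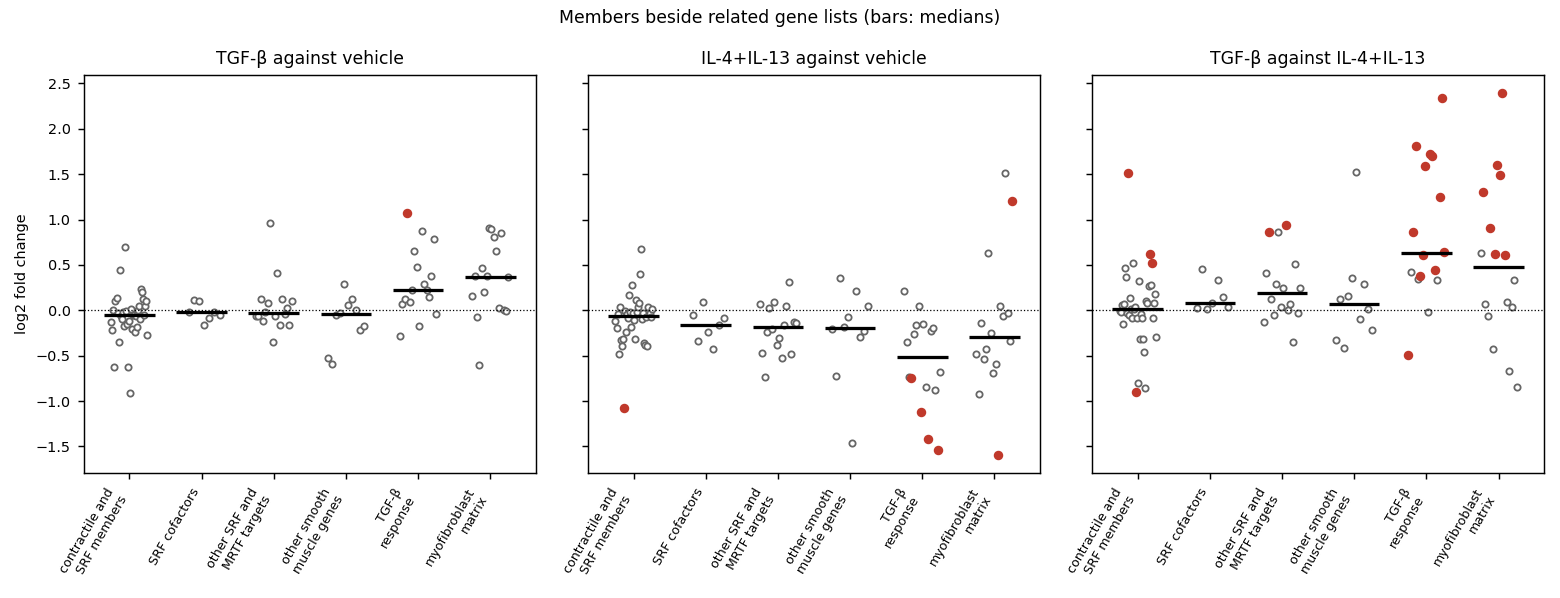
Log2 fold changes of the 36 genes and of 5 related lists in 3 comparisons (each cytokine treatment but IL-6 against vehicle, then TGF-β against IL-4+IL-13). Each point is a gene, red where called at adjusted p under 0.05, and black bars are list medians. The TGF-β response list moves to a median of 0.63 between the 2 treatments, while that of the 36 contractile genes is 0.015.

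Markers of the cell types in the mixture moved with some of these comparisons. The fibroblast and mesenchyme sum was higher after TGF-β than after vehicle in 5 of 6 batches (median log2 ratio 0.23), lower after IL-4+IL-13 in 5 of 6 (-0.23), and higher after TGF-β than after IL-4+IL-13 in 6 of 6 (0.43). Its members did not share the direction after TGF-β: 7 of the 12 were negative against vehicle, with a median log2 fold change of -0.00359. COL1A1, a type I collagen chain and the most abundant of the 12, was at 0.38 (adjusted p = 0.858), while COL3A1 was at -0.60 (adjusted p = 0.908) and TWIST1 at -0.60 (adjusted p = 0.502, lower in 6 of 6 batches). After IL-4+IL-13 all 12 were negative, with a median of -0.25. Smooth muscle and pericyte markers were lower in 4 of 6 batches after TGF-β (-0.023) and in 5 of 6 after IL-4+IL-13 (-0.16), and higher in 5 of 6 between the 2 (0.11). The endothelial sum of 6 markers was lower after TGF-β than after IL-4+IL-13 in 6 of 6 batches (-1.05) and than after vehicle in 5 of 6 (-0.72). Schwann cell and satellite glia markers were higher after TGF-β than after vehicle in 6 of 6 (0.30) by their sum, with 5 of the 10 genes positive and a median of -0.019. The part of these shifts in the values of the 36 genes was not tested.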

How the data were processed

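Raw read counts per gene of 24 libraries (6 batches of differentiation by 4 treatments) were deposited by the authors without normalization, made by their sequencing provider from reads trimmed with Trimmomatic 0.30 and aligned to GRCh38.p14. The labels call that human build a mouse reference. The aligner, the counting tool and strandedness are not given in the sources used here.

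Entries with a total count of at least 10 (29377 of 36468) were fitted with edgeR 4.0.16 in R 4.3.3 (robust quasi-likelihood F test with TMM scaling; batch and treatment as terms, all 24 libraries in 1 fit), with Benjamini-Hochberg adjustment over all entries. A gene was called at adjusted p under 0.05. Each SE was derived as the absolute log2 fold change divided by √F. DESeq2 1.42.0 (Wald test) was run beside it, and its size factors gave the normalized counts. The code was tested on simulated data. Where a symbol had 2 entries (3 of the 36 genes), the first was used.

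The labels give each library its batch of differentiation, which pairs the treatments. Same-batch libraries deviated together (median correlation 0.637, lowest -0.060 in 36 pairs), and the fit therefore keeps the batch as a block. The p values measure treatment differences against how far such differences varied between batches of 1 line, with that spread estimated from all 24 libraries.

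Always named were ACTA2, TAGLN, CNN1, MYH11, ACTB, ACTG1, SRF and MYOCD, then every member called, and per comparison with vehicle the 3 largest rises and 3 largest falls at a mean count of at least 10. In related lists SMAD7, TGFBI and up to 3 called genes per comparison were named, and some items are not reported here. The members and lists were chosen with earlier results of these data known. Alternatives were other scaling, filters, tools, sample choices and leaving out each batch. Leaving out batches 2 and 4, or their vehicles, and summing the entries of a symbol were chosen after seeing the data. Promoters and positions are RefSeq's (GRCh38.p14), and transcript lengths are GENCODE's for the Ensembl canonical transcript.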

Additional observations from a re-analysis of the deposited data

Results flagged for a closer look

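In 10 of 72 sets of 6 libraries (18 named genes by 4 treatments), 1 library lay so far from the other 5 that its gap to the nearest, as a share of the whole range of log2 levels, exceeded Dixon's 95% limit. Chance alone flags about 1 in 20 such sets, and the sets share libraries. In 7 of the 10 the library was that of batch 1, on the high side. Batch 1 was high for CNN1 after TGF-β (share 0.851), TAGLN after TGF-β (0.675), TPM1 in vehicle (0.68) and after TGF-β (0.631), SRF after TGF-β (0.702) and under IL-6 (0.734), and ANKRD1 in vehicle (0.633). Batch 6 was high for ACTC1 in vehicle (0.667), and batch 2 was low for MYLK after TGF-β (0.681) and under IL-6 (0.698).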

How the results depend on the processing

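The number of the 36 genes called stayed at 0 for TGF-β against vehicle, IL-6 against vehicle and TGF-β against IL-6 under every alternative run. For IL-4+IL-13 against vehicle it was 1 and became 0 with no replicate block, 0 with only the groups compared, 2 without the vehicle of batch 2, and 0 to 2 when each batch was left out in turn. For TGF-β against IL-4+IL-13 it was 4 and became 0 with no replicate block (the fit that ignores the pairing by batch), 2 with only the groups compared, 1 without the IL-6 libraries, 1 with a log2 fold change beyond 1 as a second limit, and 1 to 7 when each batch was left out. Without batches 2 and 4 it was 4 again, though with MYLK in place of LMOD1. The cause of these shifts was not tested. The median log2 fold change of the 36 for TGF-β against vehicle stayed negative in each fit, and that for TGF-β against IL-4+IL-13 changed sign when batches were left out (-0.088 to 0.072).

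Single genes that changed sign were all uncalled. Without batches 2 and 4, ACTB was at -0.00592 for TGF-β and ACTG1 at -0.036 for IL-4+IL-13 against vehicle, LMOD1 at -0.00101 for IL-6 against vehicle, and ACTG1 at 0.018 and ANKRD1 at -0.00946 for TGF-β against IL-6. Without the vehicles of batches 2 and 4, the same comparisons with vehicle gave -0.00978 for ACTB, -0.027 for ACTG1 and -0.038 for LMOD1. Without the vehicle of batch 2, ACTG1 was at -0.045 for IL-4+IL-13, and TAGLN2 at 0.055 and MYOCD at 0.03 for IL-6. With no replicate block ACTA2 was at 0.10 for TGF-β against IL-4+IL-13.

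Leaving out each batch in turn gave ranges that crossed 0. For TGF-β against vehicle ACTB ran from -0.022 to 0.029. For IL-4+IL-13 against vehicle the range was -0.045 to 0.10 for ACTG1, -0.086 to 0.00215 for ACTB and -0.049 to 0.017 for SRF. For IL-6 against vehicle it was -0.15 to 0.092 for MYOCD, -0.18 to 0.037 for TAGLN2, -0.073 to 0.091 for LMOD1, -0.46 to 4.43e-05 for ACTA1 and -0.000736 to 0.16 for TPM1. For TGF-β against IL-4+IL-13 it was -0.27 to 0.13 for ACTA2, -0.013 to 0.10 for ACTB, -0.034 to 0.27 for CNN1 and -0.00538 to 0.12 for SRF. For TGF-β against IL-6 it was -0.052 to 0.18 for ANKRD1, -0.066 to 0.00673 for ACTG1, -0.052 to 0.023 for ACTB and -0.31 to 0.019 for MYOCD.

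Counts over all genes moved more. For TGF-β against vehicle 102 became 504 with DESeq2, 0 with no block, 0 with only the groups compared, 12 without the IL-6 libraries, 23 without batches 2 and 4 and 1 to 133 with a batch left out. For IL-4+IL-13, 186 became 574, 13, 27 and 93 under the first 4 of these, and 76 to 234 with a batch left out. For IL-6, 0 became 132 with DESeq2. For TGF-β against IL-4+IL-13, 874 became 1572 with DESeq2, 51 with no block, 524 without the IL-6 libraries and 390 to 1423 with a batch left out. For TGF-β against IL-6, 23 became 14 with no filter, 50 with filterByExpr, 500 with DESeq2, 0 with no block, 104 with only the groups compared, 14 without batches 2 and 4 and 1 to 70 with a batch left out. Depth limits MYH11 most, at 4 to 46 counts a library.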

Other observations

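Striated muscle genes, which overlap the contractile program in its use of actin and myosin, were listed with 24 members. Several did not reach the count minimum, among them TNNT3 and TNNI2 with means of 0.333 and 0.375 counts, and no list median is given. At an unadjusted p under 0.05 (edgeR), 7 of the 24 were lower after TGF-β than after vehicle and 0 were higher. Over all genes 4.87% were lower and 2.42% higher by that rule. Between TGF-β and vehicle MYOD1, the skeletal muscle regulator, was called lower at -3.39 (edgeR adjusted p = 0.0124, lower in 6 of 6 batches) from a mean of only 7.17 counts. TNNC1, the troponin C of heart and slow muscle, was lower after TGF-β than after vehicle in 6 of 6 batches (-0.88, edgeR adjusted p = 0.124). It was also lower after TGF-β than after IL-4+IL-13 in 6 of 6 batches (-0.97, edgeR adjusted p = 0.0234). A separate list of 12 striated muscle markers overlaps this one in part (MYF5 and MYH8 listed at 0 counts, 5 of 12 at a mean of at least 10). Its sum was higher after TGF-β than after vehicle in 3 of 6 batches and lower in 3. The part of striated muscle genes in the values of ACTC1 and ACTA1 was not tested.

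ACTG1, MYH11 and ACTN4 each have a second entry in the count table. The log2 levels of the 2 entries correlated across the 24 libraries at 0.997, 0.943 and 0.734, given as a description.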
